A study of Mus musculus with 24 samples.

Results

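*Zfp598* and 6 of its partners in ribosome quality control were examined in hypothalamus SAGE-Seq libraries, and all 7 listed genes were present among the 13998 genes of the deposited table. The list was *Zfp598*, *Gigyf2*, *Ascc3*, *Pelo*, *Hbs1l*, *Ltn1* and *Nemf*. *Zfp598* was chosen by its normalized counts, which differed between the genotypes, and because it lies in the CAST segment of Chr 17, just proximal to the fine mapped interval. Its genotype difference is therefore given as a description without a test. The libraries came from 24 F2 mice, 1 library per mouse, of which 12 were homozygous for CAST/EiJ alleles (*cast/cast*) and 12 for C57BL/6J alleles (*b6/b6*) across the segment. All were *b6/b6* over the rest of the genome and had no recombination within the segment. The mice were drawn from the tails of an intercross, with the *cast/cast* mice eating the most and the *b6/b6* mice the least carbohydrate. All of them had been returned to the choice between the carbohydrate/protein (C/P) and fat/protein diets before the hypothalamus was taken. Per the study's methods they were adult males housed alone, bred from 1 congenic sire and tested in several cohorts, and the cohort of each mouse was not used here. A homozygous segment carries many genes at once, so no difference in these mice can be assigned to a single locus, and the segment genotype and the tail of intake cannot be told apart.

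Ribosome quality control is the response to ribosomes that collide on an mRNA. ZNF598, the protein of *Zfp598*, is an E3 ubiquitin ligase that recognises the interface of collided ribosomes and ubiquitylates small subunit proteins. GIGYF2 acts with the cap-binding protein 4EHP to repress translation of the affected mRNA, and ASCC3 is the helicase of the complex that splits the leading ribosome. Pelota (*Pelo*) and HBS1L rescue ribosomes that have stalled with an empty or blocked A site. After splitting, NEMF binds the large subunit with its trapped nascent chain, and listerin (*Ltn1*) ubiquitylates that chain for degradation. The pathway is known in neural tissue from mice with a hypomorphic *Ltn1* allele, which develop neurodegeneration.

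SAGE-Seq counts 1 short tag per transcript, which starts at the CATG site nearest the 3' end. The value of a gene thus does not grow with its length, and levels are comparable between genes apart from differences in tag capture and mapping. The tags below were read from GENCODE vM21 transcripts of GRCm38, each paired with a RefSeq mRNA of the gene. These tags are shown because a SAGE count rests on short sequences of this kind. They run 5' to 3' over 27 bases, with the CATG anchor in capitals.
Zfp598: CATGcttggctgagggtcagtcttggt
Gigyf2: CATGgccctgaaaaggtcttgtgaaaa
Ascc3: CATGtagaaatcttataaatgatagta
Pelo: CATGtattcaaattaaataaatcacga
Hbs1l: CATGattgttagatgagagacactaaa
Ltn1: CATGtactcttcccatactattttgcc
Nemf: CATGcaggaaaacaccattcagtatac
Each of the 7 tags lay in a 3' UTR and within 1 exon. The *Zfp598* tag was at chr17:24681649-24681675 on the plus strand, 368 bases from the end of a transcript with 6 CATG sites, and was found in no other gene. The tags of the other genes were at chr1:87450119-87450145 (*Gigyf2*, plus), chr10:50851056-50851082 (*Ascc3*, plus), chr13:115088370-115088396 (*Pelo*, minus), chr10:21368389-21368415 (*Hbs1l*, plus), chr16:87376696-87376722 (*Ltn1*, minus) and chr12:69310536-69310562 (*Nemf*, minus). The *Pelo* tag also occurred in another gene model, *Gm49395*, so its reads could be shared. A shorter *Hbs1l* isoform ends in another tag, CATGtatatattggaattggattaata at chr10:21311099-21311125. A second *Gigyf2* transcript likewise ends in CATGggtgagattgagactctggatga at chr1:87449112-87449138. The *Nemf* tag lies outside the span of the gene in the deposited table, chr12:69311543-69357176. The table gives 1 value per gene and does not say which tags entered it.

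The libraries held 7754202 to 13082873 tag hits, with medians of 10032338.5 (*b6/b6*) and 10383038 (*cast/cast*). All values below named normalized counts are tag hits divided by the size factor of the library. The study numbers that the labels give the mice had a median of 269.5 (*b6/b6*) and 120.5 (*cast/cast*), and a gap from 121 to 197 split them into 12 earlier (5 *b6/b6*, 7 *cast/cast*) and 12 later mice (7 *b6/b6*, 5 *cast/cast*), named so by number alone, as no dates were used. The *b6/b6* replicates 6 and 12, both among the earlier mice, stood apart on the second principal component of the genes outside the segment, which held 20.1% of the variance, and results that rest on them are given with and without them. The first component held 39.4%. On it *cast/cast* replicates 4, 5, 6 and 8 were positive and the other *cast/cast* mice negative. The earlier *b6/b6* mice were negative on it, and the later ones positive except replicate 3. The *cast/cast* replicate 6 also stood apart, with a median rank correlation of 0.819 to the other libraries (0.830 and 0.789 for *b6/b6* replicates 6 and 12), and leaving it out made none of the partners a called gene. All 11 hypothalamus markers checked (*Pomc*, *Agrp*, *Npy*, *Cartpt*, *Hcrt*, *Pmch*, *Oxt*, *Avp*, *Trh*, *Gal* and *Nr5a1*) were detected and none was called between genotypes, their summed normalized count running from 11475 to 29759 in *b6/b6* and from 5918 to 34885 in *cast/cast* mice. The marker lists for neurons, astrocytes, oligodendrocytes, microglia, endothelium and neighbouring tissue also held no called gene. In whole hypothalamus, fewer cells of a type and less RNA per cell cannot be told apart.

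*Zfp598* (chr17:24669752-24682016, plus strand) was a moderately abundant transcript in *b6/b6* hypothalamus and close to absent from the counts of *cast/cast* hypothalamus. In *b6/b6* mice its normalized count was lowest at 208, had a median of 471 and was highest at 609, and the mean of 442.0 ± 113 (SD, n = 12) exceeded the mean of 10045 of the other genes. In *cast/cast* mice it was lowest at 0, had a median of 1.97 and was highest at 8.50, with a mean of 2.66 ± 2.31 (SD, n = 12). Every *cast/cast* mouse was thus below every *b6/b6* mouse, and 0.336% of all genes had genotypes that did not overlap. The low *b6/b6* values were those of replicates 12 and 6 (208 and 268), and the high *cast/cast* value that of replicate 9. As tag hits, the *b6/b6* libraries held 191 to 661 each (5522 in all) and the *cast/cast* libraries 0 to 9 each (33 in all). Of the *cast/cast* libraries, 2 had no hit and 8 had at most 3 hits, the limit that a count of 0 allows, so their order among themselves was not resolved at this depth.

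The mean of *Zfp598* was 166-fold lower in *cast/cast* mice. On the scale of log2(normalized count + 1) the difference, *cast/cast* minus *b6/b6*, was -7.13 (SE 0.29, 95% interval -7.72 to -6.53). The interval is given as a description and not as a test, since these counts chose the gene. With a pseudocount of 5 the difference was -5.87, since the *cast/cast* counts are near 0. Split by period, the same mice had means of 378 ± 131 (*b6/b6*, n = 5) against 3.07 ± 2.80 (*cast/cast*, n = 7) in the earlier period. In the later period the means were 488 ± 79.3 (n = 7) against 2.08 ± 1.497 (n = 5). Without *b6/b6* replicates 6 and 12 the log2 difference was -7.30. The authors aligned tags to the C57BL/6J reference, so a CAST variant within the tag or at the CATG site and a lower transcript level give the same loss of hits, and in these data they cannot be told apart.

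The share of *Zfp598* among the hits of the 7 genes restates this difference and is given as a description. In *b6/b6* mice it took 11.6 to 25.3% of them (median 18.7%), and 18.4% over all libraries (exact binomial 95% interval 17.9 to 18.8%, counting error only). In *cast/cast* mice it took 0 to 0.386% (median 0.120%), and 0.134% over all libraries (interval 0.0923 to 0.188%). The summed normalized count of the 6 partners had medians of 1971 (*b6/b6*) and 1960 (*cast/cast*), with ranges of 1578 to 2435 and 1561 to 2695 that overlapped nearly throughout.

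**Figure D1:**
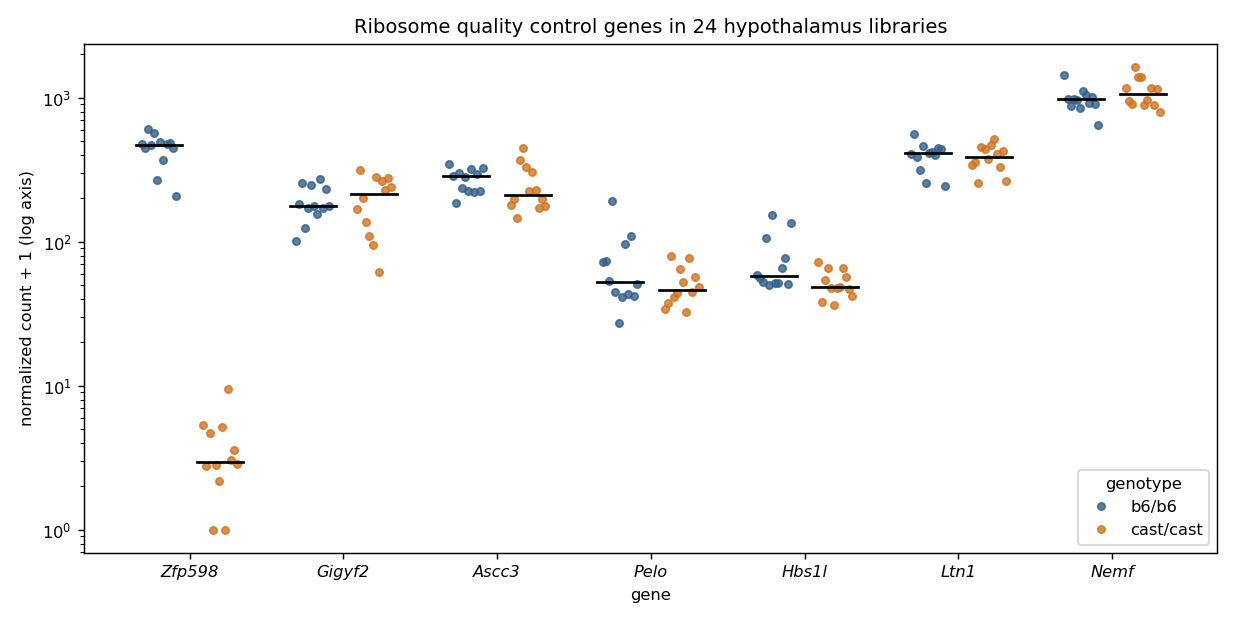
Normalized count + 1 of the 7 ribosome quality control genes, on a log axis, in each of 12 *b6/b6* (blue) and 12 *cast/cast* (orange) mice, with bars at the group medians. The genotypes separate for *Zfp598* (208 to 609 against 0 to 8.50) and overlap for the other 6 genes.

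None of the 6 partners, all of which lie outside the CAST segment, passed the call of an unadjusted *P* of at most 0.01 with a ratio of means of at least 1.5 (limma over all genes). Among all genes 1.49% passed that call (1.01% lower and 0.471% higher in *cast/cast* mice), and among the 13319 genes outside the segment 0.713% did. None passed a Benjamini-Hochberg adjusted *P* of 0.05 over all genes either, as 0.572% of all genes and 0.0225% of those outside the segment did, so with 6 genes a count of 0 is what the background gives. The median log2 difference of the partners was -0.11, and that of all genes tested was -0.02. At an unadjusted *P* under 0.05, 1 partner (*Hbs1l*) passed, as did 8.13% of all genes and 7.13% of those outside the segment.

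*Gigyf2* (chr1:87326998-87450810, plus strand) and *Ascc3* (chr10:50592669-50851202, plus strand) act with or directly after ZNF598. *Gigyf2* ranged from 101 through a median of 176 to 271 in *b6/b6* mice and from 61.0 through 213 to 312 in *cast/cast* mice. The *cast/cast* mice lay on both sides, with 2 below and 3 above every *b6/b6* mouse. The means were 188 ± 52.4 and 197 ± 82.6 (n = 12 each), and the log2 difference of -0.03 (95% interval -0.51 to 0.46) did not pass the test (limma, adjusted *P* = 0.981). *Ascc3* ranged from 183 through 284 to 348 in *b6/b6* and from 145 through 211 to 446 in *cast/cast* mice, again spread more widely in *cast/cast*, with 4 mice below and 2 above every *b6/b6* mouse. Its means were 270 ± 51.4 and 247 ± 93.1, with a log2 difference of -0.19 (interval -0.54 to 0.16, adjusted *P* = 0.748). The *cast/cast* replicates 4, 5, 6 and 8, positive on the first principal component, had the highest *Ascc3* of their genotype (302 to 446). They also had its lowest *Gigyf2* (61.0 to 137).

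The ribosome rescue pair had the lowest levels of the list in *b6/b6* mice. *Hbs1l* (chr10:21295979-21368889, plus strand), the GTPase partner of Pelota, ranged from 48.8 through 56.5 to 151 in *b6/b6* and from 35.6 through 47.2 to 71.0 in *cast/cast* mice. The genotypes overlapped, but 7 *cast/cast* mice were below every *b6/b6* mouse, and the high *b6/b6* values were those of replicates 6 and 12 (151 and 134). The means were 74.5 ± 35.7 and 50.8 ± 11.2, and the log2 difference was -0.45 (SE 0.20, interval -0.86 to -0.05). This did not pass (limma, unadjusted *P* = 0.0288, adjusted *P* = 0.586). Without *b6/b6* replicates 6 and 12 the difference was -0.25 (unadjusted *P* = 0.129 by limma). On the recovered tag hits it was -0.55 with edgeR (unadjusted *P* = 0.0115) and -0.55 with DESeq2 (unadjusted *P* = 0.00905). With study number as a covariate the difference was -0.54 (limma, unadjusted *P* = 0.00973). With 2 principal components as covariates it was -0.20 (limma, unadjusted *P* = 0.212). The ratio of means, 1.47-fold lower, stayed under the threshold.

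*Pelo* (chr13:115088355-115090158, minus strand) ranged from 26.2 through 51.3 to 190 in *b6/b6* and from 31.4 through 45.6 to 78.8 in *cast/cast* mice. All *cast/cast* mice lay within the *b6/b6* range, whose upper end was replicate 4. The means were 69.5 ± 45.2 and 50.1 ± 15.7, with a log2 difference of -0.31 (interval -0.82 to 0.20, adjusted *P* = 0.713 by limma). The direction turned with the period. In the earlier mice the mean was 39.98 ± 8.64 with the *b6/b6* and 53.2 ± 19.1 with the *cast/cast* genotype (log2 difference 0.36), and in the later mice 90.6 ± 49.5 and 45.9 ± 9.36 (-0.84). The test of this change, chosen after the data were seen, gave -1.19 (SE 0.43, limma interaction of genotype and period, unadjusted *P* = 0.0105, adjusted *P* = 0.337). No gene reached an adjusted interaction *P* of 0.05, while 1885 had an unadjusted *P* under 0.05.

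*Ltn1* and *Nemf*, whose products act on the split large subunit, were the most abundant of the partners. *Ltn1* (chr16:87376651-87432606, minus strand) ranged from 244 through 410 to 556 in *b6/b6* and from 255 through 389 to 518 in *cast/cast* mice, the latter range within the former. Its means of 395 ± 88.2 and 386 ± 81.3 gave a log2 difference of -0.03 (interval -0.33 to 0.27, adjusted *P* = 0.968 by limma). *Nemf* (chr12:69311543-69357176, minus strand) ranged from 650 through 973 to 1449 in *b6/b6* and from 793 through 1054 to 1632 in *cast/cast* mice, with 1 *cast/cast* mouse above every *b6/b6* mouse. Its means of 978 ± 188 and 1107 ± 257 gave a log2 difference of 0.17 (interval -0.10 to 0.44, adjusted *P* = 0.707 by limma). The intervals of the 6 partners all lay between -0.86 and 0.46.

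In *b6/b6* mice the order of mean levels, in normalized counts, was *Nemf*, *Zfp598*, *Ltn1*, *Ascc3*, *Gigyf2*, *Hbs1l* and *Pelo*. *Nemf* was above *Zfp598* in 12 of 12 mice and *Gigyf2* above *Hbs1l* in 12 of 12. The other neighbours were less clearly ordered, with *Zfp598* above *Ltn1* in 9, *Ltn1* above *Ascc3* in 10, *Ascc3* above *Gigyf2* in 9 and *Hbs1l* above *Pelo* in 6 mice. In *cast/cast* mice the 6 partners kept the same order of means and *Zfp598* was last. There *Nemf* was above *Ltn1* in 12, *Ltn1* above *Ascc3* in 11, *Ascc3* above *Gigyf2* in 5, *Gigyf2* above *Hbs1l* in 12 and *Hbs1l* above *Pelo* in 6 mice.

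A wider set of 60 genes was read from 8 lists that cover collision sensing, repression, splitting, rescue, nascent chain degradation, mRNA decay, stress signalling and the ribosomal substrates, and 57 of them were measured. *Map3k20*, *Atf3* and *Rps2* were not analysed here. Apart from *Zfp598*, whose difference was what chose it, none of them was called. None of the 50 genes that were not members passed the call or reached an adjusted *P* of 0.05 (limma). Among all genes 1.49% and 0.572% did, and outside the segment 0.713% and 0.0225%, so a count of 0 in 50 is near the background. The median log2 difference of the 50 genes was 0.03, with 24 below and 26 above 0. Of the genes that act beside ZNF598 in collision sensing, the values of 3 abundant ones are given. *Edf1*, a sensor that binds collided ribosomes, had means of 3367 ± 616 (*b6/b6*) and 3770 ± 831 (*cast/cast*), *Gnb2l1* (RACK1, the scaffold at the collision interface) 2715 ± 1026 and 2786 ± 478, and *Usp10*, a deubiquitylase of small subunit proteins, 4519 ± 1299 and 4727 ± 1174. The 10 genes of that list, *Zfp598* included, had a median log2 difference of -0.10. The 3 genes of 4EHP-GIGYF repression had a median of -0.03, and *Eif4e2*, which encodes 4EHP, had means of 202 ± 33.8 and 198 ± 27.6. The 4 genes of the splitting complex had a median of -0.02 and the 8 of rescue and recycling -0.23. The 9 nascent chain genes had a median of 0.17, with 7 above 0, among them *Vcp*, the segregase that extracts ubiquitylated chains (means of 21595 ± 9384 and 26897 ± 15509, adjusted *P* = 0.804 by limma). The 16 mRNA decay genes had a median of 0.01, the 4 stress signalling genes -0.09 and the 3 ribosomal substrates 0.23.

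At an unadjusted *P* under 0.05, 3 of the 50 genes passed, beside 8.13% of all genes, and they were picked here after their values were seen. *Rnf14*, an E3 ligase for stalled translation factors, had means of 1875 ± 603 (*b6/b6*) and 1366 ± 157 (*cast/cast*), and the log2 difference was -0.40 (adjusted *P* = 0.452 by limma). *Ttc37*, a scaffold of the Ski complex that feeds mRNA to the exosome, had means of 11.5 ± 10.8 and 4.31 ± 2.99 (-1.17, adjusted *P* = 0.519). *Dis3*, an exosome nuclease, had means of 16.8 ± 8.87 and 10.5 ± 3.64 (-0.59, adjusted *P* = 0.607). The counts of *Ttc37* and *Dis3* were low, from 0 to 9.79 and from 1.82 to 14.5 in *cast/cast* mice, where counting error is large. Only *Ttc37* and *Dis3* among these were called under another setting, *Ttc37* with edgeR, with DESeq2, with study number as a covariate and without *cast/cast* replicate 6, and *Dis3* with study number as a covariate. Besides *Zfp598*, the listed genes inside the CAST segment were *Skiv2l*, the helicase of the Ski complex, and *Rps10*, a small subunit protein that ZNF598 ubiquitylates. *Skiv2l* had means of 58.5 ± 37.8 and 61.8 ± 31.6 (log2 difference 0.11, adjusted *P* = 0.914 by limma). *Rps10* had means of 1770 ± 559 and 2149 ± 860 (0.24, adjusted *P* = 0.744 by limma), and without the 6 earliest mice it was called higher in *cast/cast*, at 0.66 (limma, adjusted *P* = 0.176).

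**Figure D2:**
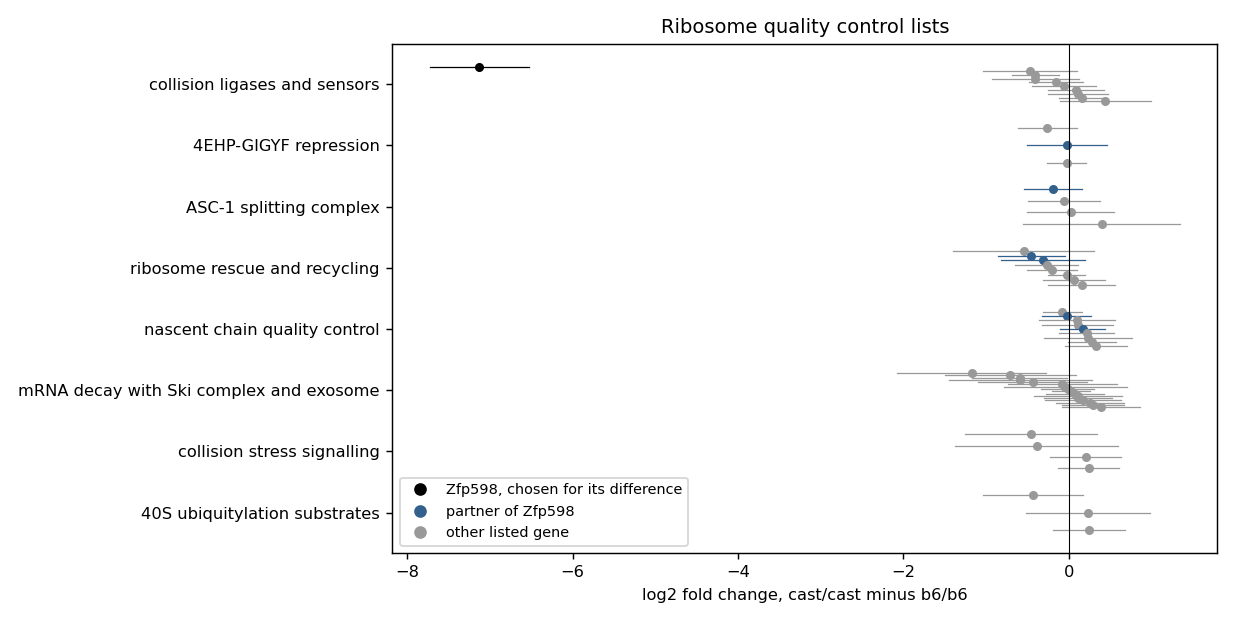
Log2 difference, *cast/cast* minus *b6/b6*, of the 57 measured genes of the ribosome quality control lists, with lines for the 95% intervals, sorted within each list. *Zfp598* (black) stands at -7.13, and the other genes, with the partners in blue, run from -1.17 (*Ttc37*) to 0.44 (*Otud3*).

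*Zfp598* lies in a stretch of the segment where other genes also differed. Of the 430 genes in the CAST segment 24.4% were called, 18.6% lower and 5.81% higher in *cast/cast* mice, and 10.2% had genotypes that did not overlap, while 16.7% passed an adjusted *P* of 0.05. For these genes too, a CAST variant in a tag or CATG site cannot be told apart here from a changed transcript level. Outside the segment no gene had genotypes without overlap. Within 200 kb of *Zfp598*, 20 other genes were measured, of which 4 were called lower, 2 higher and 14 not. *Nthl1*, a DNA glycosylase of base excision repair 30.9 kb proximal to *Zfp598*, had means of 69.3 ± 15.1 (*b6/b6*) and 1.53 ± 1.38 (*cast/cast*) without overlap (log2 difference -4.99, limma, adjusted *P* = 6.5e-13). *Caskin1*, a synaptic scaffold gene, had means of 2310 ± 611 and 631 ± 375 (-2.00, adjusted *P* = 5.5e-07). *Tbl3*, a gene of small subunit ribosomal RNA processing, had means of 82.7 ± 63.3 and 14.1 ± 10.1 (-2.59, adjusted *P* = 0.000117). *Ndufb10*, a subunit of respiratory complex I, had means of 219 ± 164 and 107 ± 26.2 (-0.77, adjusted *P* = 0.472), and was not called without *b6/b6* replicates 6 and 12 (-0.45) or without *cast/cast* replicate 6 (-0.75).

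The 2 genes called higher were *Noxo1*, an organizer of NADPH oxidase, and *Rab26*, a vesicle GTPase. *Noxo1* had means of 54.1 ± 18.9 and 131 ± 36.3 without overlap (1.30, limma, adjusted *P* = 0.000153). *Rab26* had means of 105 ± 26.7 and 166 ± 42.4 (0.66, adjusted *P* = 0.0504), and without *b6/b6* replicates 6 and 12 it was not called (0.55). The genes on either side of *Zfp598* were not called. *Slc9a3r2*, 19.4 kb proximal, had means of 215 ± 35.3 and 261 ± 55.2 (0.26, adjusted *P* = 0.608 by limma). *Syngr3*, 3.08 kb distal, had means of 1513 ± 927 and 1130 ± 428 (-0.32, adjusted *P* = 0.712 by limma). The next, *Gfer*, had means of 111 ± 45.6 and 128 ± 43.6 (0.22, adjusted *P* = 0.799 by limma). Genes called lower, genes called higher and genes not called thus lay side by side over the stretch.

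**Figure D3:**
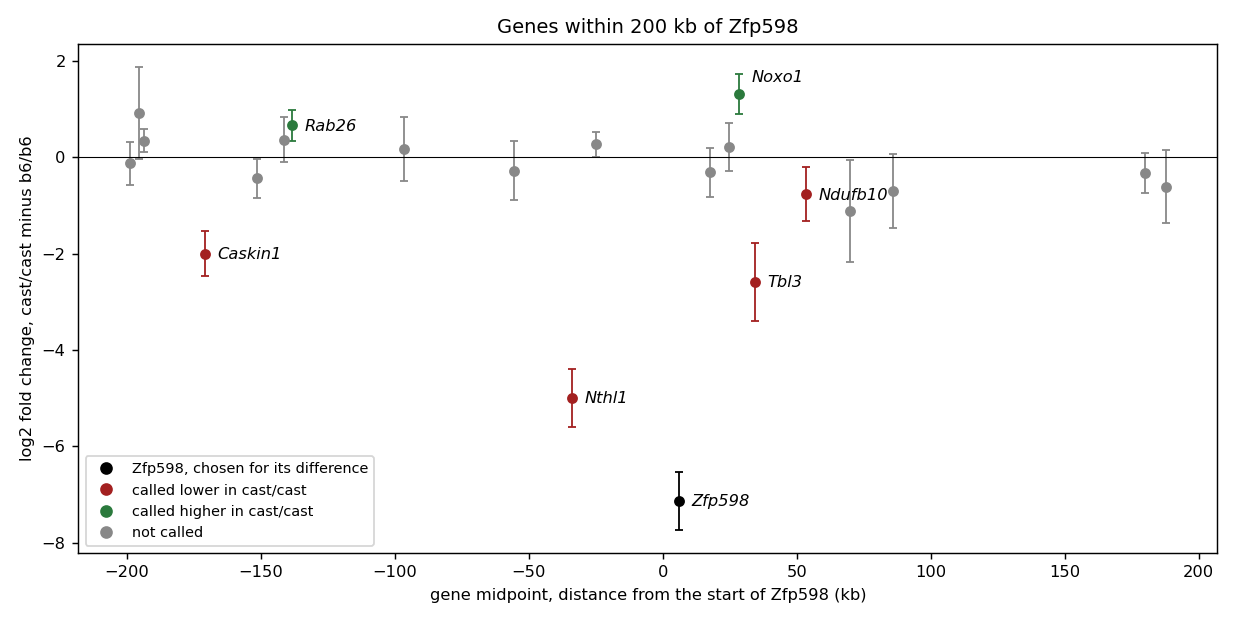
Log2 difference, *cast/cast* minus *b6/b6*, with 95% intervals, for *Zfp598* and the 20 genes within 200 kb, against the distance of the gene midpoint from the start of *Zfp598* in kb. *Zfp598* (black) is at -7.13, and genes called lower (red, with *Nthl1* at -4.99) and higher (green) stand between genes that were not called (grey).

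Over all 24 mice the genes whose log2 values followed *Zfp598* most closely were *Brpf3* (Pearson's r 0.98), *AA388235* (0.98), *Pla2g7* (0.97), *Phf1* (0.97) and *Znrd1* (0.97). All 5 lie in the CAST segment, and over both genotypes such an r mostly restates the genotype difference. Within the 12 *b6/b6* mice, genes among the closest were *LOC100503186* (0.95), *Gm410* (0.94), *Rbms1* (0.94) and *Axin2* (0.94). Without replicates 6 and 12 these genes had r of 0.71, 0.67, 0.57 and 0.55 over 10 mice.

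Within *b6/b6* mice, 2 partners varied with *Zfp598* in level, *Ltn1* in the same direction and *Hbs1l* inversely. Both relations rested on replicates 6 and 12, whose *Zfp598* values were also farthest from the median. For *Hbs1l* r was -0.76 (permutation *P* = 0.00945, adjusted over 6 partners 0.0306) and Spearman's rho -0.43 (permutation *P* = 0.169). For *Ltn1* r was 0.74 (permutation *P* = 0.0102, adjusted 0.0306) and rho 0.34 (permutation *P* = 0.286). With all other genes of the table of 13998 ranked from the highest r down, *Ltn1* was at 1162 and *Hbs1l* at 12619. Many genes thus had an r with *Zfp598* as far from 0 as these. Without the 2 mice r was -0.08 for *Hbs1l* and -0.09 for *Ltn1* (permutation *P* = 0.799 and 0.798), so neither relation held among the other 10. *Ascc3* had an r of -0.54 with *Zfp598* (permutation *P* = 0.0712, adjusted 0.107) and a rho of -0.45 (permutation *P* = 0.147). Without the 2 mice its r was -0.63 (permutation *P* = 0.0484, unadjusted), so this r did not rest on them. *Nemf* (r 0.57, rho 0.36), *Pelo* (0.22, 0.07) and *Gigyf2* (-0.06, -0.07) did not pass (permutation test, adjusted *P* = 0.107, 0.593 and 0.858 for r). Without the 2 mice r was -0.22 for *Nemf*, -0.36 for *Pelo* and 0.27 for *Gigyf2*. Among the 7 later *b6/b6* mice r was -0.12 for *Hbs1l*, -0.07 for *Ltn1* and -0.79 for *Ascc3*, and the 5 earlier ones were too few for a value.

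**Figure D4:**
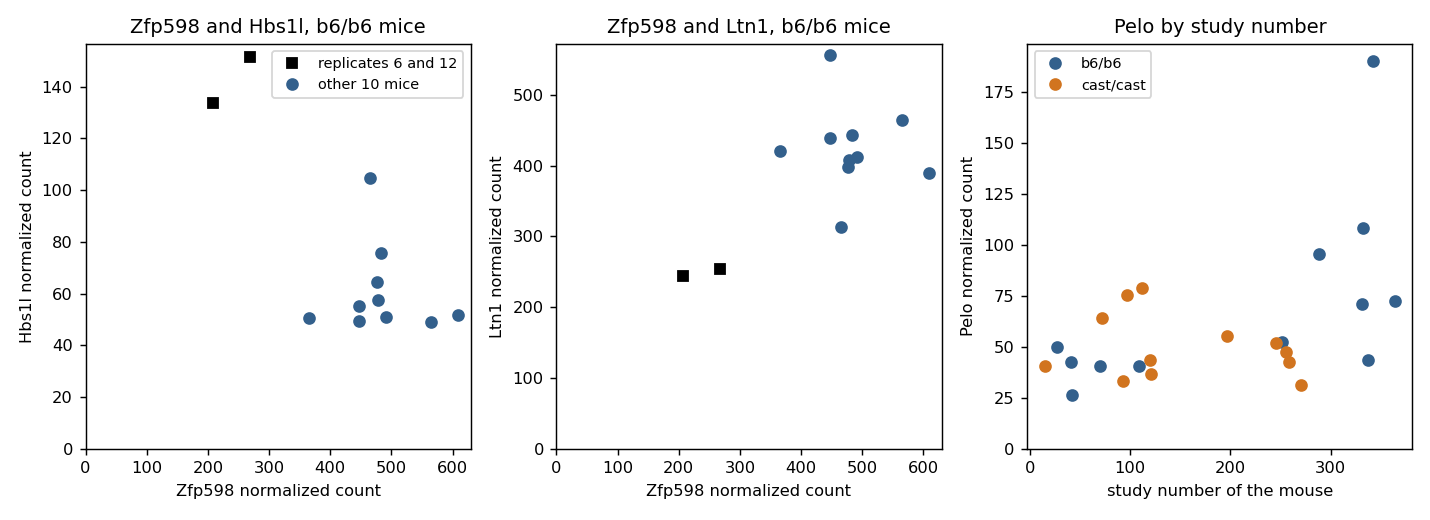
Left and centre, normalized count of *Hbs1l* and of *Ltn1* against that of *Zfp598* in the 12 *b6/b6* mice, with replicates 6 and 12 as black squares. Right, normalized count of *Pelo* against study number in *b6/b6* (blue) and *cast/cast* (orange) mice, where the *b6/b6* values reach 190 among the later mice and lie between 26.2 and 50.03 among the earlier ones.

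The levels of the 7 genes were also set against C/P intake, total intake and study number within each genotype, 42 relations in all. None reached an adjusted *P* of 0.05 by Pearson's r or Spearman's rho, and 7 had an unadjusted *P* under 0.05 for r. Such relations were not computed for all genes, so no background share stands beside the 7. The relation of *Zfp598* with C/P intake in *b6/b6* mice had an r of 0.77 (permutation *P* = 0.00443, adjusted 0.0993) and a rho of 0.44. Without the 2 mice farthest from the median intake, a set that left replicate 6 in, r was 0.42. Among the 7 later *b6/b6* mice, without replicates 6 and 12, r was 0.60. *Ltn1* with C/P intake in *b6/b6* mice had an r of 0.73 (permutation *P* = 0.00605, adjusted 0.0993) and a rho of 0.59. Its r was 0.51 without the 2 farthest mice and 0.61 among the 7 later mice. *Pelo* with study number in *b6/b6* mice had an r of 0.71 (permutation *P* = 0.0085, adjusted 0.0993) and a rho of 0.69. Its r was 0.73 without the 2 farthest mice and 0.27 among the 7 later mice. *Ascc3* fell with total intake in *cast/cast* mice with an r of -0.71 (permutation *P* = 0.00946, adjusted 0.0993) and a rho of -0.68. Its r was -0.36 without the 2 farthest mice and -0.71 among the 7 earlier *cast/cast* mice. The rho farthest from 0 was 0.79, for *Nemf* with C/P intake in *cast/cast* mice (permutation *P* = 0.00297, adjusted 0.125). There r was 0.56 (permutation *P* = 0.0552, adjusted 0.214), 0.55 without the 2 farthest mice and 0.40 among the 7 earlier mice.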

How the data were processed

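Hypothalamus RNA of 24 F2 mice, 12 *cast/cast* and 12 *b6/b6* per the labels, was sequenced as SAGE tags. The deposited signal values are counts of mapped tags scaled by the authors, who placed tags on RefSeq mRNA and GRCm38 and used DESeq size factors for the scaling. The authors' own comparison columns (fold changes and P) were not used. The 19529 rows hold 13998 genes, repeated rows being identical. Each library's values proved to be multiples of 1 step (100% whole at a tolerance of 0.02), from which tag hits were recovered. The lowest mean of a gene was 6.03, so rarer genes are not analysed here. No 2 of the 276 library pairs agreed within sampling noise (lowest chi-square per degree of freedom 14.7). Nothing used here says that libraries were prepared in separate batches.

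Genes were tested with limma 3.58.1 (lmFit, eBayes with trend, R 4.3.3) on log2(normalized count + 1), over all genes and without a covariate, with Benjamini-Hochberg adjustment. Fold changes on this scale understate those of low genes. A gene was called at P no greater than 0.01, unadjusted, when the means also differed by a ratio of 1.5 or more. Another 249 genes had no unique position, and these were tested without a region. The segment was read as its genes from chr17:3114972 to 45698495. Alternatives were a pseudocount of 0.5 or 5, genes with a mean of 20 or more only, rescaling to equal totals, a count model of the tag hits (edgeR 4.0.16 or DESeq2 1.42.0), a covariate for study number, the 6 earliest mice left out, and each period alone. Leaving out *b6/b6* replicates 6 and 12, leaving out *cast/cast* replicate 6, 2 principal components as covariates and the interaction with period were added after the data were seen. Correlations used 100000 permutations, two-sided. The binomial intervals and the floors cover counting error only, as tags carry no molecular identifiers. Intervals of log2 differences come from the limma fit and include the spread between mice.

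The members and gene lists were chosen with earlier results of these data known, so no test was made over a list. Named genes were the 7 members, listed genes that were called or lie in the CAST segment, genes within 200 kb of *Zfp598*, and the 5 most like *Zfp598* over all mice and within *b6/b6* mice, of which 1 is not reported here. *Edf1*, *Gnb2l1*, *Usp10*, *Eif4e2*, *Vcp*, *Rnf14*, *Ttc37*, *Dis3*, *Otud3* and *Ascc1* were named after their values were seen. Tables and figures were made in Python 3.11.15 with matplotlib 3.10.9, scipy 1.17.1, pandas 2.3.3 and numpy 2.4.6.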

Additional observations from a re-analysis of the deposited data

How the results depend on the processing

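None of the 6 partners was called under any of the 14 alternatives. The log2 difference of *Zfp598*, which was chosen for it, ran from -7.48 to -5.87. Genes called over the whole table numbered 208, and 391 with edgeR, 395 with DESeq2, 332 without the 6 earliest mice, 458 in the earlier mice alone, 138 without *b6/b6* replicates 6 and 12, and 80 by adjusted P. Called pathway genes numbered 1, *Zfp598* itself, and 2 with edgeR, with DESeq2 and without *cast/cast* replicate 6 (*Ttc37* added), 3 with study number as a covariate (*Ttc37* and *Dis3*), 2 without the 6 earliest mice (*Rps10*) and 2 in the earlier mice alone (*Ascc1*). The causes were not tested. Some signs turned. *Gigyf2* was at 0.065 with edgeR, 0.068 with DESeq2, 0.22 without the 6 earliest mice, 0.052 in the later mice 0.013 without *b6/b6* replicates 6 and 12 and 0.056 without *cast/cast* replicate 6. *Ltn1* was at 0.042 with study number as a covariate and 0.064 in the earlier mice, *Nemf* at -0.0042 without the 6 earliest and -0.0235 in the later mice, *Pelo* at 0.36, *Syngr3* at 0.0084, *Skiv2l* at -0.064 and *Rps10* at -0.18 in the earlier mice, and *Gfer* at -0.13 without the 6 earliest. Rescaling to the same total moved the median log2 difference of all genes from -0.02 to -0.11 and turned none of the signs given for members and neighbours. No paired analysis was made, as nothing used here pairs mice across the genotypes. The replicate numbers only name mice in accession order. *Ndufb10* lost its call under 5 alternatives and *Rab26* under 2, besides the adjusted P, which neither passed. The depth limits *Zfp598* in *cast/cast* mice, where most libraries held at most 3 tag hits.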
